A study of Mus musculus with 4 samples.

Results

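The 10 genes of fatty acid synthesis and desaturation were examined in mouse brain endothelial cells and their neighbours, with and without dietary PLX5622. They were chosen by symbol, namely Fasn, Acaca, Acly, Acss2, Scd1, Scd2, Elovl5, Elovl6, Fads1 and Fads2, and all 10 were found among the 32285 gene rows of each library. Brain cells of C57BL6 mice were sorted by flow cytometry for CD31, an endothelial surface protein, after the meninges, cerebellum and olfactory bulbs had been taken away, and were sequenced with the droplet-based 10x Genomics 3 prime chemistry. One group ate chow containing PLX5622 at 1200 ppm for 1 month, and the other ate control diet for the same 1 month. PLX5622 inhibits CSF1R, the receptor that microglia need to survive. Each diet had 2 libraries, and brains of 3 mice were spread over them. A library is therefore not always 1 animal, and a p-value here measures how libraries vary, which may be technical variation.

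Cells make palmitate in the cytosol from acetyl-CoA, which ACLY releases from citrate and ACSS2 makes from acetate. ACACA converts acetyl-CoA to malonyl-CoA, and FASN assembles the chain. Elongases of the ELOVL family then lengthen it, and desaturases add double bonds: SCD1 and SCD2 make monounsaturated fatty acids, while FADS1 and FADS2 work on polyunsaturated ones. Much of this set is under the transcription factors SREBP and LXR in liver and other tissues, and Scd2 is the stearoyl-CoA desaturase known for its high level in brain.

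Depth was 19044018 and 26949278 UMIs (unique molecular identifiers, each standing for 1 captured transcript) on PLX5622, against 11186648 and 38600208 on control diet. Barcodes counted as cells when they reached 1000 UMIs and 500 genes with no more than 10% of UMIs from mitochondrial genes. By this rule 3989 and 3670 cells were kept on PLX5622 and 1696 and 5509 on control diet. Their median depth was 3834 and 5921.5 UMIs on PLX5622 and 5184 and 5573 on control diet. Of the 14864 cells, 13267 were endothelial-like and carried Cldn5, which encodes the main tight junction claudin of these vessels, at 7098 and 7285 CPM on PLX5622 and 7003 and 7937 CPM on control diet. CPM (counts-per-million) scales the gene's UMIs by all UMIs of the same cells in the same library. Any pair of libraries shared 1 to 6 cell barcodes. The diet labels were checked in barcodes under 100 UMIs, which hold free RNA: 8 microglial markers summed to 22.3 and 28.0 CPM on PLX5622, against 202 and 70.9 CPM on control diet.

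The sequences of 7 of the 10 genes' promoters, from 250 bases before to 50 bases after the start of transcription, were in the RefSeq table for GRCm38.p6. Shown are 3 of them: that of Fasn, the synthase whose transcript was higher on PLX5622, and those of Acly and Elovl5, 2 enzymes that did not pass the test. Capitals mark matches, on either strand, to CCAAT (the NF-Y box), GGGCGG (the Sp1 box) or CACGTG (an E-box). Fasn is at chr11:120824498-120824797 on the minus strand, Acly at chr11:100527951-100528250 on the minus strand and Elovl5 at chr9:77917115-77917414 on the plus strand.
Fasn: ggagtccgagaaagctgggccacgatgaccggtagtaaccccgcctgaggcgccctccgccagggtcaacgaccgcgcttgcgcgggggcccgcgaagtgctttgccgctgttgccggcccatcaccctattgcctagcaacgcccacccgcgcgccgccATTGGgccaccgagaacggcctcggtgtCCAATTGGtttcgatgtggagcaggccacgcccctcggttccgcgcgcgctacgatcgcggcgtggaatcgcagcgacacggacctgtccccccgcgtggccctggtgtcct
Acly: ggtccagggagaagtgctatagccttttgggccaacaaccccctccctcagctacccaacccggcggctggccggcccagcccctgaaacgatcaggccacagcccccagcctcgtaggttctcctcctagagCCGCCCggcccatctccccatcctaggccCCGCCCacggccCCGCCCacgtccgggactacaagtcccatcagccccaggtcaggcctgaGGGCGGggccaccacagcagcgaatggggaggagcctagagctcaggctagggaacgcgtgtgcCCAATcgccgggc
Elovl5: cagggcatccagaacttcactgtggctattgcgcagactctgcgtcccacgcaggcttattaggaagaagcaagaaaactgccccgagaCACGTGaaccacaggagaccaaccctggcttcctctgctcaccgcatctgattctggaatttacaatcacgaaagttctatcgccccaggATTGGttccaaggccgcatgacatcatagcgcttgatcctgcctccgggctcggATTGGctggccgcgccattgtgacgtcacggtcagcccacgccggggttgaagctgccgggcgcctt
Fasn held 3 CCAAT matches, starting 90, 62 and 59 bases before the start, of which the last pair overlap as CCAATTGG on opposite strands. Acly held 1 CCAAT and 4 GGGCGG matches. Elovl5 held 2 CCAAT matches and 1 to CACGTG, the E-box. Of the table's 32851 promoters, CCAAT was in 37.4%, GGGCGG in 35.7% and CACGTG in 7.15%. The sterol regulatory element TCACNCCAC (1.24% of promoters) and the LXR element, a repeat of AGGTCA after 4 bases (0.0152%), matched in none of the 7 windows. Only these exact letters were searched, and a match or the lack of one is a description of letters only. The Acaca window, from 84195188, lies inside the gene as GENCODE M21 places it (84129672 to 84401651).

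The first comparison asks how these genes differ with the diet in brain endothelium. In endothelial-like cells on PLX5622, the transcript of the synthase Fasn was higher by 2.49-fold and that of the desaturase Fads1 by 1.65-fold, while the desaturase Scd1 was at 0.215 of its control level. These 3 passed the test, 2 higher and 1 lower, and the other 7 genes did not. Among all 12749 genes tested, 0.761% were called higher and 0.384% lower by edgeR's quasi-likelihood test on library sums at a Benjamini-Hochberg adjusted p under 0.05. The 10 genes had a median log2 fold change (PLX5622 over control) of 0.45, beside 0.00 for all tested genes. In 6 of the 10, both PLX5622 libraries stood above both controls, as in 15% of all tested genes, and in 1, Scd1, below both, as in 25.9%.

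**Figure D1:**
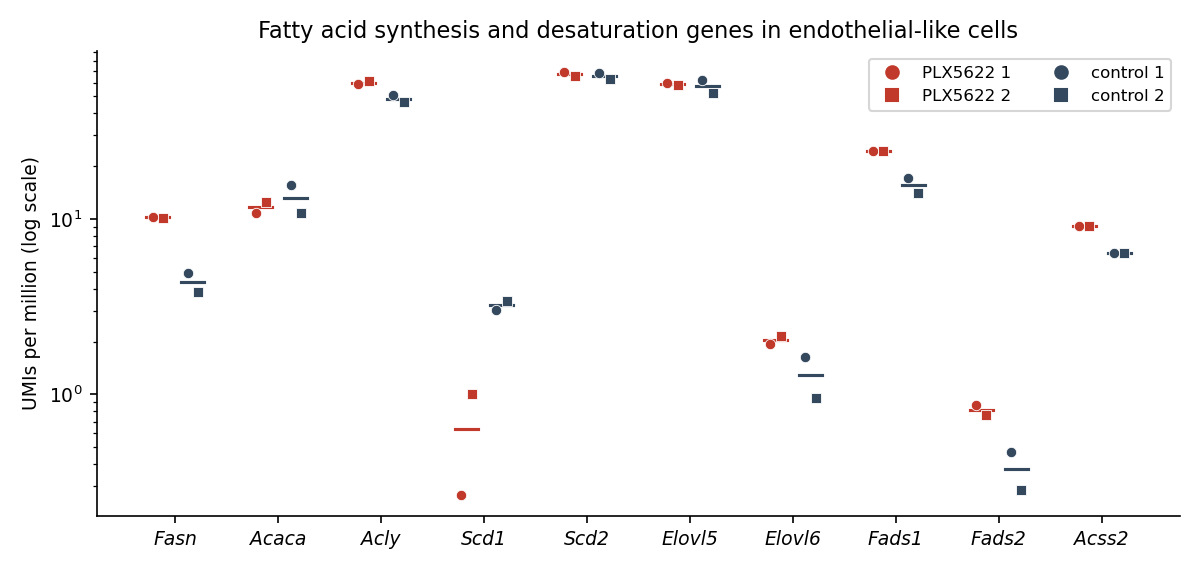
CPM (log scale) of the 10 genes in endothelial-like cells, with 1 point per library and a bar at the mean of each diet's 2 libraries. Fasn, Fads1 and Acss2 have both PLX5622 points above both control points, Scd1 has them below, and Scd2 and Elovl5 overlap.

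The genes that supply and start the chain come first in the pathway. Acly, ATP citrate lyase, read 58.6 and 61.1 CPM on PLX5622 and 51.0 and 46.2 CPM on control diet. The groups did not overlap, but the log2 fold change of 0.35 ± 0.09 (SE) missed the threshold in edgeR's test (adjusted p = 0.0808). Acss2, the cytosolic acetyl-CoA synthetase, read 9.14 and 9.15 CPM on PLX5622 and 6.42 and 6.44 CPM on control diet, a log2 fold change of 0.54 ± 0.16 that also missed it (edgeR adjusted p = 0.162). Both libraries of each diet lay close together for Acss2, on 136 and 192 UMIs against 55 and 202. Acaca, acetyl-CoA carboxylase alpha, had overlapping groups, with 10.9 and 12.4 CPM on PLX5622 and 15.6 and 10.9 CPM on control diet (log2 fold change -0.07 ± 0.16, edgeR adjusted p = 0.931).

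Fasn lies on the minus strand of chromosome 11 from 120805846 to 120824547 (GRCm38, GENCODE M21) and encodes the enzyme that builds palmitate. It read 10.3 and 10.1 CPM on PLX5622 and 4.90 and 3.86 CPM on control diet, from 153 and 213 UMIs against 42 and 121. All of the PLX5622 values were above all of the controls, and the mean was 10.2 ± 0.0936 CPM on PLX5622 and 4.38 ± 0.739 CPM on control diet (SD, n = 2 each). The log2 fold change was 1.32 ± 0.18 (edgeR adjusted p = 0.000905), and it was between 1.15 and 1.40 with an adjusted p of at most 0.0211 in the 16 alternatives, which included leaving out each library. Of cells thinned to 1000 UMIs each, 1.05% and 0.986% held a Fasn UMI on PLX5622 and 0.649% and 0.404% on control diet; unthinned, the shares were 4.05% and 5.86% against 2.60% and 2.28%. In free RNA, Fasn read 7.43 and 11.4 CPM on PLX5622 and 4.73 and 7.82 CPM on control diet.

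Of the 2 elongases, Elovl5, which extends polyunsaturated chains, read 60.1 and 58.0 CPM on PLX5622 and 62.1 and 52.2 CPM on control diet. The groups overlapped, with a log2 fold change of 0.11 ± 0.09 (edgeR adjusted p = 0.759). Elovl6, which takes palmitate to stearate, was near the limit of detection, with 29 and 45 UMIs (1.95 and 2.14 CPM) on PLX5622 and 14 and 30 UMIs (1.63 and 0.956 CPM) on control diet. Its log2 fold change of 0.86 ± 0.34 did not pass (edgeR adjusted p = 0.357).

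The desaturases of polyunsaturated fatty acids both lie on chromosome 19, where Fads1 runs from 10182888 to 10196877 and Fads2 from 10062765 to 10101746 (GRCm38). Fads1, the delta-5 desaturase, read 24.4 CPM in both PLX5622 libraries and 17.2 and 14.0 CPM on control diet. Its log2 fold change was 0.72 ± 0.12 (edgeR adjusted p = 0.00511), with an adjusted p of at most 0.0415 in all 16 alternatives. Thinned to 1000 UMIs, 2.30% and 2.40% of endothelial-like cells held a Fads1 UMI on PLX5622 and 1.88% and 1.07% on control diet, against 8.93% and 13.5%, and 7.98% and 7.85%, unthinned. Fads2, the delta-6 desaturase, had only 13 and 16 UMIs (0.873 and 0.762 CPM) on PLX5622 and 4 and 9 UMIs (0.467 and 0.287 CPM) on control diet. Those levels were 6.61% and 6.07% of the free RNA level on PLX5622 and 2.35% and 2.04% on control diet, which is read as near background. Its log2 fold change of 1.30 ± 0.53 did not pass (edgeR adjusted p = 0.368).

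**Figure D2:**
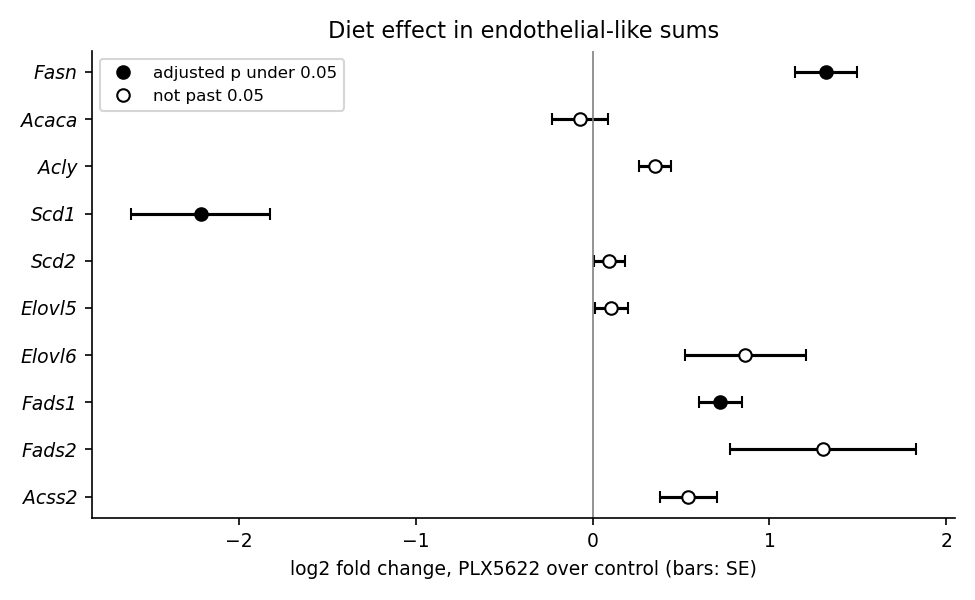
Log2 fold change of each gene, PLX5622 over control, in endothelial-like sums of the 4 libraries, with the standard error as a bar. Filled points have an edgeR adjusted p under 0.05: Fasn (1.32) and Fads1 (0.72) to the right of 0, Scd1 (-2.22) to the left.

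The stearoyl-CoA desaturase genes both lie on chromosome 19, Scd1 from 44394455 to 44407879 on the minus strand and Scd2 from 44293674 to 44306864 on the plus strand (GRCm38). The last 1000 bases of Scd1 and Scd2 transcripts, where this chemistry counts, shared 0 of 976 runs of 25 bases, so no run of that length in this stretch is common to both. Scd1 had 4 and 21 UMIs in endothelial-like cells on PLX5622 and 26 and 107 on control diet, which is 0.269 and 1.00 CPM against 3.03 and 3.41 CPM. Both PLX5622 libraries were below both controls and differed from each other by more than the controls did. The log2 fold change was -2.22 ± 0.39 (edgeR adjusted p = 0.00986). The ratio of control to PLX5622 levels over the summed counts was 4.78, with an exact 95% interval of 3.10 to 7.65 for counting error only. Leaving out control library 2, which holds most of the Scd1 UMIs, took the adjusted p to 0.0872 (log2 fold change -2.04), and giving the arterial, capillary and venous sums equal weight took it to 0.111 (-1.45). The equal weight alternative, here and below, also left out all other endothelial-like cells. Among them was the intermediate cluster described below, with 28.6% of the endothelial Scd1 UMIs on control diet and 0% on PLX5622. Weights and cells thus changed together in it. The log2 fold change was -3.54 without PLX5622 library 2 and -1.68 without PLX5622 library 1.

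Scd2 did not pass and its groups overlapped, with 69.1 and 65.8 CPM on PLX5622, 67.8 and 62.8 CPM on control diet and a log2 fold change of 0.10 ± 0.09 (edgeR adjusted p = 0.784). Of the UMIs of both genes together, Scd1 took 0.388% and 1.498% on PLX5622, with exact binomial 95% intervals of 0.106% to 0.989% and 0.930% to 2.28%. On control diet it took 4.28% (2.82% to 6.21%) and 5.15% (4.24% to 6.19%). These intervals do not meet between diets, but they cover counting error only, and the log2 ratio of the 2 genes gave an exact two-sided permutation p of 0.333, the smallest that 2 libraries against 2 allow. The share of UMIs is not corrected for transcript length and is read only between libraries.

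Scd1 UMIs were in few cells. Of 3527 and 3245 endothelial-like cells on PLX5622, 3 and 16 held one (0.0851% and 0.493%), against 18 of 1541 and 81 of 4954 on control diet (1.17% and 1.64%). No cell held more than 3. Thinned to 1000 UMIs, 0 of 3527 and 0 of 3245 cells on PLX5622 held one, which allows up to 0.0851% and 0.0924% of cells with a UMI at that depth only, against 0.389% and 0.343% on control diet. Thinned to 2000 UMIs, 0.0318% and 0.226% held one on PLX5622 and 0.288% and 0.487% on control diet. Of the cells that held Scd1, 36.8% on PLX5622 and 37.4% on control diet also held Scd2, beside 24.3% and 26.4% of the other cells, whose median depth was lower (7131 UMIs in Scd1 cells and 4624 in others on PLX5622, 7078 and 5356 on control diet).

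Free RNA held Scd1 at 5.78 and 4.57 CPM on PLX5622 and 7.57 and 8.86 CPM on control diet, from 7, 8, 8 and 17 UMIs. Endothelial-like cells therefore stood at 4.65% and 21.9% of the free level on PLX5622 and at 40.1% and 38.5% on control diet. The same quotient was 1.74% to 2.06% for 8 smooth muscle markers, 7.07% to 12.5% for 8 astrocyte markers, 10.6% to 17.2% for 8 pericyte markers and 27.5% to 49.8% for 8 oligodendrocyte markers. The oligodendrocyte range takes in the quotient of Scd1 on control diet. However, only 6 and 4 of these 8 markers were detected in endothelial-like cells on PLX5622, and 3 and 6 on control diet. Other lists lay higher or lower, such as 6 platelet markers (60.2% to 121%) and 6 erythroid markers (0.166% to 0.858%). What part free RNA has in the Scd1 level was not tested. Scd1 was high in astrocyte-like cells. The astrocyte markers, 8 of 8 detected in each library, summed to 62.6 and 66.2 CPM in endothelial-like cells on PLX5622 and to 72.8 and 57.1 CPM on control diet, so the diets overlapped. Their part in the Scd1 difference was not tested further.

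Endothelial-like cells were split into zones by clustering from which these genes were left out, so levels by zone are a description and the diet effect within a zone is the test. Arterial-like cells numbered 396 and 445 on PLX5622 and 227 and 793 on control diet, capillary-like cells 1588 and 1451 against 554 and 1820, and venous-like cells 340 and 407 against 186 and 608. The clusters called capillary-like carried 3 and 4 markers of venous-side capillaries and 0 and 1 of arterial-side ones. Capillary-like here therefore leans to the venous side. Fasn was higher on PLX5622 in each of 4 zones. In arterial-like cells it read 15.6 and 13.1 CPM on PLX5622 and 7.03 and 5.13 CPM on control diet, and in venous-like cells 13.4 and 11.98 CPM against 6.03 and 4.33 CPM. In capillary-like cells it read 7.47 and 8.003 CPM on PLX5622 and 3.93 and 2.83 CPM on control diet. The arterial and capillary values of 1 diet did not overlap, with arterial above capillary in every library.

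**Figure D3:**
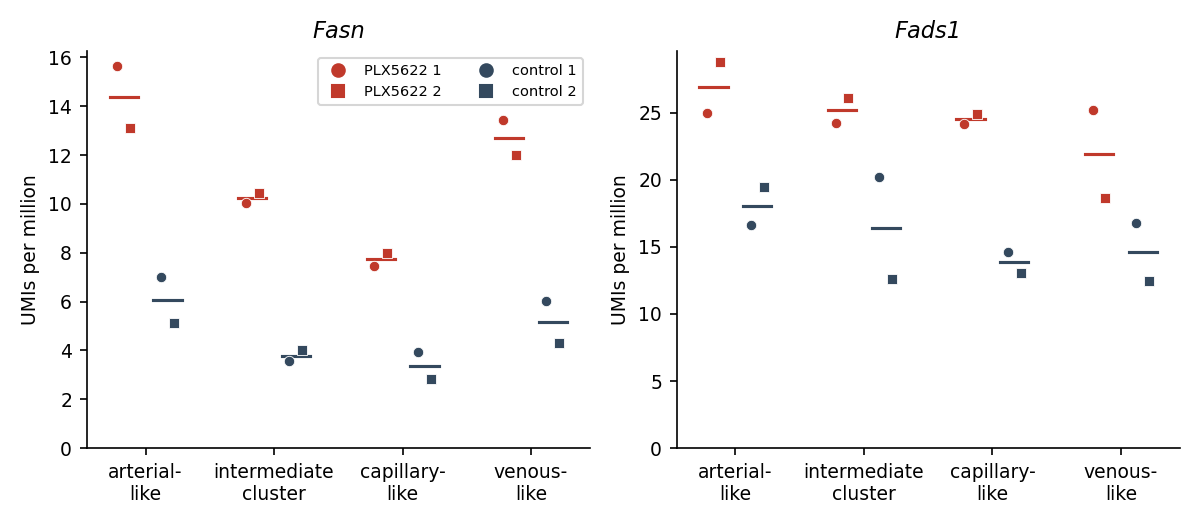
Fasn and Fads1 in CPM by endothelial zone, with 1 point per library and a bar at the mean of each diet. Fasn on PLX5622 lies above control in each zone, and Fads1 stays between 18.6 and 28.8 CPM on PLX5622 against 12.5 to 20.2 CPM on control diet.

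A further cluster carried 5 of 6 markers of arterial-side capillaries and 4 of 12 arterial markers, and is called the intermediate cluster (896 and 764 cells on PLX5622, 468 and 1475 on control diet). There Fasn read 10.0 and 10.4 CPM on PLX5622 and 3.57 and 4.02 CPM on control diet. Fasn's log2 fold change was 1.33 ± 0.33 in arterial-like, 1.41 ± 0.29 in intermediate, 1.33 ± 0.31 in capillary-like and 1.41 ± 0.35 in venous-like cells, with edgeR adjusted p of 0.0435, 0.0145, 0.00607 and 0.0178. Of all genes tested in these zones, 0.361%, 0.572%, 0.973% and 0.847% were called higher. The zone calls, unlike that of all endothelial-like cells, were lost in DESeq2 (adjusted p 0.388 to 1) and without control library 2 (0.116 to 0.359) or PLX5622 library 2 (0.0719 to 0.223). Without PLX5622 library 1 those of arterial-like (0.285) and venous-like cells (0.116) were lost. The difference in the diet effect between zones was 0.01 ± 0.60 for arterial minus capillary and 0.08 ± 0.46 for venous minus capillary on the log2 scale, and neither passed (edgeR adjusted p of 0.9998 and 1). The ± values here are derived from edgeR's F statistic and are unstable for differences this near 0, and limma-voom gave 0.41 and 0.43. Of all genes, 0.286% passed the arterial minus capillary difference and 0.0715% the venous minus capillary one.

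Fads1 passed in capillary-like cells, with 24.2 and 24.9 CPM on PLX5622 and 14.6 and 13.1 CPM on control diet (log2 fold change 0.88 ± 0.17, edgeR adjusted p = 0.000796, and 0.123 in DESeq2). In the other zones its log2 fold change was 0.56 ± 0.22 (arterial-like), 0.79 ± 0.19 (intermediate) and 0.67 ± 0.24 (venous-like). The edgeR adjusted p was 0.479, 0.0507 and 0.232 there. In the intermediate cluster Fads1 passed in 6 of 13 alternatives, and its difference from the capillary-like effect was not tested. The zone differences tested did not pass, at -0.32 ± 0.25 for arterial minus capillary and -0.21 ± 0.26 for venous minus capillary.

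Scd1 lay on the arterial side. In arterial-like cells it had 4 and 18 UMIs on PLX5622 (2.08 and 5.24 CPM) and 11 and 68 on control diet (7.03 and 11.6 CPM). All PLX5622 values were below all controls, but the log2 fold change of -1.32 ± 0.40 did not pass (edgeR adjusted p = 0.158). In the intermediate cluster it had 0 UMIs in both PLX5622 libraries, among 8393387 UMIs, and 11 and 27 on control diet (4.36 and 3.01 CPM). Scd1 was called lower there on PLX5622 (edgeR adjusted p = 0.00243), as were 0.225% of all genes tested. The control level was 9.25-fold that of a floor of 3 counts over both PLX5622 libraries. This quotient leaves out the counting error of the control and the spread between libraries, so it is not a lower limit. Without control library 2 Scd1 fell under the filter on low counts there and was not tested.

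Capillary-like cells, whose markers lean to the venous side, held 0 and 1 Scd1 UMIs on PLX5622 and 0 and 7 on control diet. Venous-like cells held 0 and 2 against 3 and 4. Both were too few to enter the test. The control to PLX5622 ratio was 8.13 in capillary-like cells, with a counting interval of 1.04 to 367, and 2.95 in venous-like cells, with one of 0.563 to 29.1. Arterial-like cells held 88% of the endothelial Scd1 UMIs on PLX5622 and 59.4% on control diet, beside 14.9% and 18.6% of all endothelial UMIs. The intermediate cluster held 0% on PLX5622 and 28.6% on control diet. The zone by diet difference for Scd1, arterial minus capillary, was 1.17 ± 1.17 and did not pass (edgeR adjusted p = 0.998). With so few capillary-like UMIs, this test cannot tell whether the diet effect on Scd1 differs by zone. The intermediate cluster was not in that model, so its difference from the other zones was not tested.

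**Figure D4:**
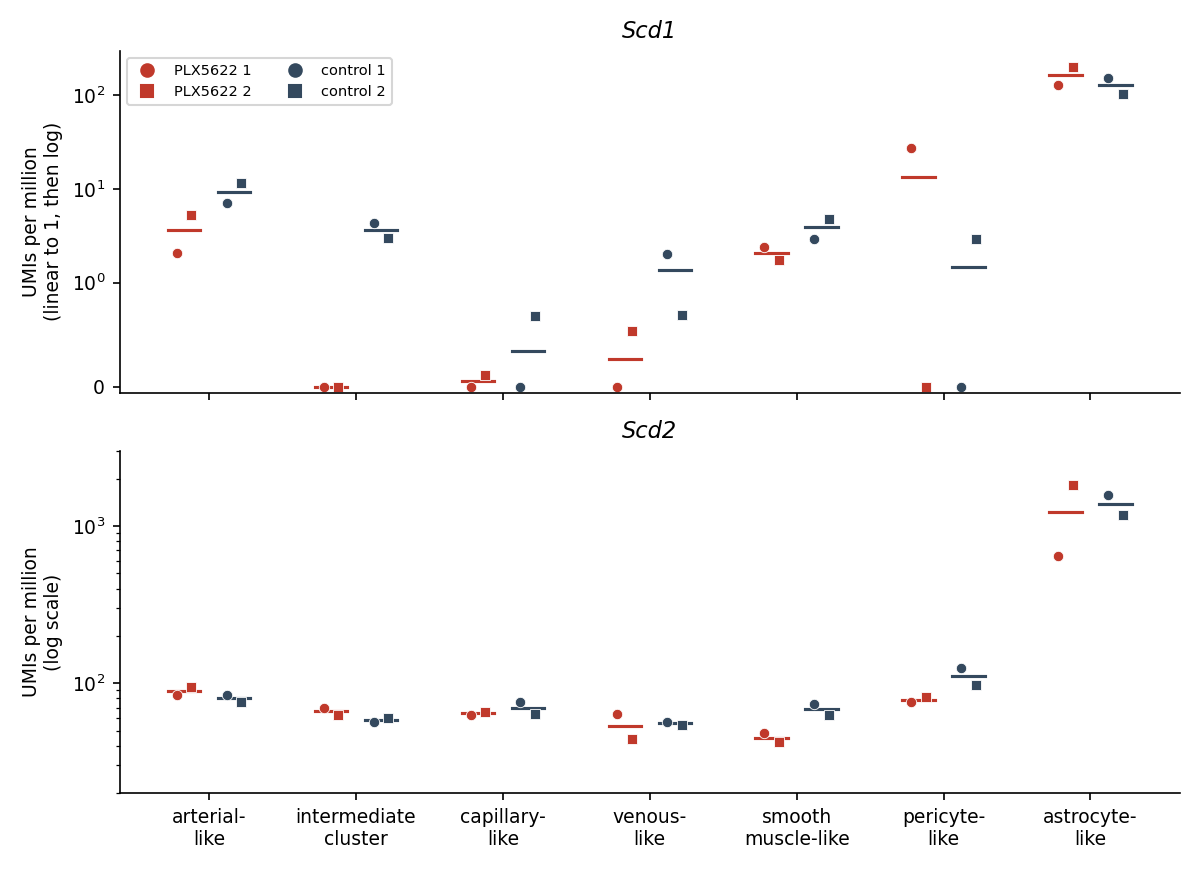
Scd1 (top, linear to 1 and logarithmic above) and Scd2 (bottom, logarithmic) in CPM by cell class, with 1 point per library and a bar at the mean of each diet. Scd1 is 0 in the intermediate cluster of both PLX5622 libraries, and Scd2 stays between 42.0 and 126 CPM in vascular classes against 645 to 1817 CPM in astrocyte-like cells.

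Scd2 by zone read 83.9 and 94.8 CPM in arterial-like cells on PLX5622 and 83.7 and 76.4 CPM on control diet. In capillary-like cells it read 63.0 and 65.6 CPM on PLX5622 and 76.0 and 63.3 CPM on control diet, and in venous-like cells 63.8 and 43.9 CPM against 57.0 and 54.0 CPM. Of the 4 zones, arterial-like cells had the highest value in every library, while capillary-like, intermediate and venous-like levels overlapped. No zone passed for Scd2 (edgeR adjusted p = 0.765 to 0.979). Scd1's share of both genes' UMIs was 2.42% and 5.23% in arterial-like cells on PLX5622 and 7.75% and 13.2% on control diet, so within that zone, too, the PLX5622 shares were lower, with intervals that overlap.

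**Figure D5:**
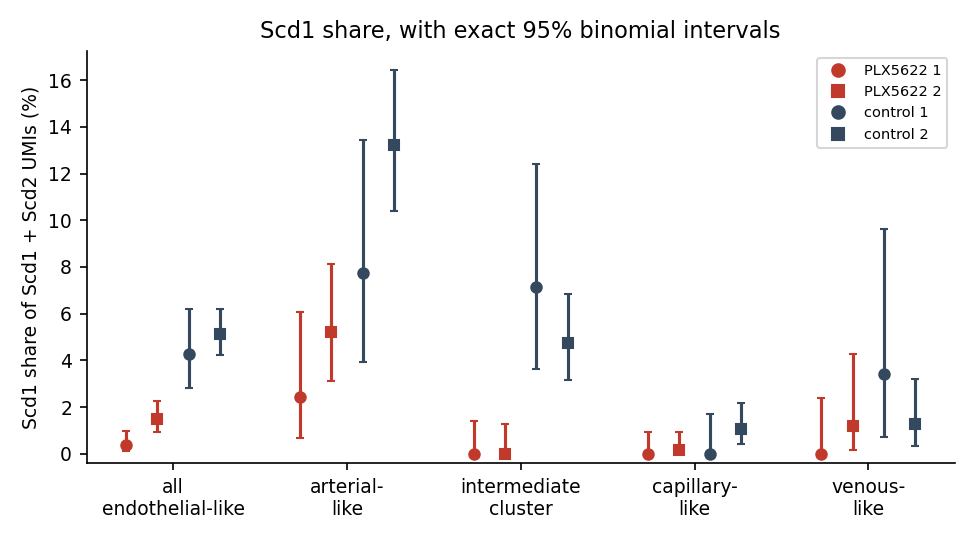
Scd1 UMIs as a percentage of Scd1 and Scd2 UMIs, by library, in all endothelial-like cells and in 4 zones, with exact 95% binomial intervals that cover counting error only. The PLX5622 libraries stand at 0.388% and 1.498% over all endothelial-like cells, against 4.28% and 5.15% on control diet.

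Of the other genes, Acly stood between 53.1 and 65.0 CPM in the 4 zones on PLX5622 and between 42.9 and 53.9 CPM on control diet, and passed in none of them. Elovl5 stood between 49.9 and 73.0 CPM on PLX5622 and 49.6 and 73.5 CPM on control diet, Acaca between 9.65 and 17.2 CPM against 8.996 and 17.4 CPM, and neither passed in any zone. Elovl5 on PLX5622 read 73.0 CPM in both arterial-like sums and 49.9 and 54.9 CPM in venous-like cells. Acss2 ranged from 1.28 CPM (2 UMIs, arterial-like cells of control library 1) to 11.3 CPM (venous-like cells of PLX5622 library 1) and came nearest to the threshold in capillary-like cells (9.54 and 11.05 CPM against 8.92 and 4.98 CPM, log2 fold change 0.79 ± 0.26, edgeR adjusted p = 0.125). Elovl6 and Fads2 were too low to be tested in any zone. In arterial-like cells Elovl6 read 4.69 and 3.49 CPM on PLX5622 and 0.639 and 0.854 CPM on control diet, on only 9 and 12 UMIs against 1 and 5.

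Smooth muscle-like cells (61 and 60 on PLX5622, 36 and 70 on control diet) allowed a test of 3 genes, Acly, Scd2 and Elovl5. None passed in edgeR's test, as none of the 6389 genes tested did (0%), although 291 had an unadjusted p under 0.05 there, 39 in DESeq2 and 336 in limma-voom, also with 0 calls. Scd2 read 47.9 and 42.0 CPM on PLX5622 and 73.5 and 62.7 CPM on control diet, below in both libraries (log2 fold change -0.54 ± 0.30, edgeR adjusted p = 0.997). Both PLX5622 libraries lay below both controls in 18.6% of all genes tested in smooth muscle-like cells. In arterial-like cells Scd2 lay above in both, as 15.9% of the genes tested there did. That difference was small and did not pass (log2 fold change 0.20 ± 0.14, edgeR adjusted p = 0.855). The difference between the classes, smooth muscle-like minus arterial-like, was -0.73 ± 0.34 and did not pass (edgeR unadjusted p = 0.036, adjusted p = 0.982), as 0.0298% of all genes did; this contrast was chosen after seeing the data.

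Pericyte-like cells (52 and 39 on PLX5622, 12 and 50 on control diet) were too few in 1 library for a test. Levels are compared between classes as a description, with no test. Fads2 stood above its endothelial level in each library there, at 37.8 and 84.7 CPM on PLX5622 and 57.1 and 26.5 CPM on control diet, with overlapping diets. In smooth muscle-like cells Fads2 read 4.79 and 22.8 CPM on PLX5622 and 5.88 and 9.64 CPM on control diet, between endothelial-like and pericyte-like cells in every library. Scd2 read 75.7 and 81.2 CPM in pericyte-like cells on PLX5622 and 126 and 97.3 CPM on control diet. Scd1 had 5 and 0 UMIs there on PLX5622 and 0 and 1 on control diet. Acss2 also stood above its endothelial level in all 4 libraries, at 32.4 and 28.2 CPM on PLX5622 and 22.8 and 17.7 CPM on control diet. These pericyte-like levels rest on few UMIs: 14 of Acss2 on PLX5622 and 8 on control diet, and 31 and 14 of Fads2.

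Astrocyte-like cells, only 9 and 19 on PLX5622 and 14 and 38 on control diet, stood above the 4 endothelial zones, smooth muscle-like and pericyte-like cells in Scd1, Scd2, Fads1, Fads2 and Fasn in each library. Scd1 read 129 and 201 CPM there on PLX5622 and 152 and 103 CPM on control diet. Scd2 read 645 and 1817 CPM on PLX5622 and 1584 and 1172 CPM on control diet. Fads2 stood at 258 and 333 CPM on PLX5622 and 405 and 330 CPM on control diet. The diets were not tested in these few cells. Fasn read 86.0 and 195 CPM on PLX5622 and 135 and 114 CPM on control diet, from 33 UMIs on PLX5622 and 40 on control diet. Fads1 read 344 and 252 CPM against 320 and 170 CPM, from 48 and 67 UMIs. For each of these 5 genes the diets overlapped. Ependymal-like cells, 10 in all and in 3 libraries, also held Fads2, at 286 and 460 CPM on PLX5622 and 303 CPM on control diet, and Scd2, at 687 and 627 CPM on PLX5622 and 644 CPM on control diet.

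The genes most like 3 of the members over the 20 sums of 5 vascular classes in 4 libraries, by Pearson's r of log2(CPM + 1) among 6641 genes with a mean of at least 20 CPM, were named as a description, since sums of a library share its depth. Fasn's pattern was most like those of Vps4a (r = 0.777), Taf2 (0.763) and Cct6a (0.714). Scd1 was most like Anxa5 (0.820), Fbln2 (0.778) and Cyb5r3 (0.777). Scd2 was most like Itm2c (0.844), Cd151 (0.837) and Dpysl2 (0.814). The pericyte-like sums among the 20 held only 5 and 0 Scd1 UMIs on PLX5622 and 0 and 1 on control diet. Fasn had 3 UMIs there on PLX5622 and 6 on control diet, so the ranks for Scd1 and Fasn can turn on few UMIs. Cyb5r3 encodes cytochrome b5 reductase, which passes electrons towards the desaturases, and Fbln2 was among the top genes of the arterial-like cluster. No link of these genes to Scd1 was tested.

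The counts of the lists that follow stand beside 0.761% of all tested genes higher and 0.384% lower in endothelial-like cells. Of 15 regulators on the list 14 were tested, of which 3 were higher, 0 lower and 11 did not pass, with a median log2 fold change of 0.23. Mid1ip1, which promotes polymerisation of acetyl-CoA carboxylase, read 33.2 and 33.3 CPM on PLX5622 and 21.9 and 23.5 CPM on control diet (log2 fold change 0.57 ± 0.10, edgeR adjusted p = 0.0119, and 0.109 with equal weight to the zones). Insig1, which holds SREBPs in the endoplasmic reticulum, and Srebf2, the SREBP of the sterol branch, were the other two (1.46 ± 0.10 and 0.71 ± 0.09). Srebf1, the SREBP that drives fatty acid genes, read 28.4 and 24.6 CPM on PLX5622 and 22.5 and 20.6 CPM on control diet. The groups did not overlap, but its log2 fold change of 0.35 ± 0.11 did not pass (edgeR adjusted p = 0.216).

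Of 18 other enzymes of synthesis, elongation and desaturation 11 were tested and 0 passed in edgeR's test (median log2 fold change 0.15). Hacd3, a dehydratase of the elongation cycle, came nearest, with 27.4 and 28.3 CPM on PLX5622 and 22.2 and 21.3 CPM on control diet (0.40 ± 0.10, edgeR adjusted p = 0.0857). None of 6 tested genes of mitochondrial fatty acid synthesis passed (median -0.01). Of 15 tested genes that activate fatty acids or build glycerolipids 1 was higher. This was Acsl4, an acyl-CoA synthetase that prefers arachidonate, at 28.5 and 28.9 CPM on PLX5622 and 21.6 and 18.8 CPM on control diet (0.57 ± 0.11, edgeR adjusted p = 0.0141). Its adjusted p was 0.0514 in DESeq2 and 0.0595 without control library 2.

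Of 18 tested genes of fatty acid oxidation and release 2 were lower, with a median log2 fold change of -0.14. Mgll, the monoacylglycerol lipase, read 53.4 and 52.1 CPM on PLX5622 and 91.7 and 75.8 CPM on control diet (-0.61 ± 0.09, edgeR adjusted p = 0.00323, and 0.104 with equal weight to the zones). Pdk4, which inhibits pyruvate dehydrogenase, read 5.24 and 5.43 CPM on PLX5622 and 10.9 and 8.70 CPM on control diet (-0.79 ± 0.17, edgeR adjusted p = 0.0364), and missed the threshold in DESeq2, with equal weight to the zones and without any of 3 libraries (adjusted p 0.0506 to 0.162). Of 9 tested genes of uptake and transport 1 was lower: Gpihbp1, the anchor of lipoprotein lipase, with 0 and 0.238 CPM on PLX5622 and 1.52 and 1.498 CPM on control diet (edgeR adjusted p = 0.0143). Its adjusted p was 0.08 without control library 2. Without the 19 fenestrated-like cells, all in control libraries (6 and 13), it no longer passed the filter on low counts.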

How the data were processed

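Single-cell UMI counts of 4 libraries were used, and no other columns of per-sample values were left out. The deposited matrices hold raw counts per gene and barcode without cell calling, as the whole numbers and the file headers show. The file headers name Cell Ranger 4. The submitters' processing notes list Cell Ranger 6.0.1, Seurat 4.0, mm10 and mm39 without saying what each was used for. The build and annotation behind the counts are not given in the sources used here. Gene positions come from GENCODE M21 (GRCm38), matched by gene ID.

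Cells were filtered as the report states and clustered with igraph 0.11.9 (Leiden) under Python 3.11.15, at resolution 0.5 on 30 components of 2000 variable genes. Endothelial-like cells were clustered again at resolution 0.6 on 20 components. Left out there were fatty acid, sterol, LXR, interferon, MHC class I, hypoxia, stress, cell cycle, mitochondrial and ribosomal genes. Clusters were named from marker lists with at least 3 markers, and none of the names comes from the authors. No doublet caller was run. Clusters with markers of 2 classes were kept apart, and 116 endothelial-like cells with 3 markers of another class were left out in an alternative.

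UMIs of a class were added up within each library, because libraries and not cells are the replicates. A class needed 20 cells in every library to be tested. Diets were compared with the quasi-likelihood test of edgeR 4.0.16 under R 4.3.3, with TMM, its default filter on low counts and robust fitting; p-values were adjusted by Benjamini-Hochberg over all genes tested, two-sided at 0.05. The zone by diet difference was tested in 1 model over arterial-like, capillary-like and venous-like sums with the library as a block. The ± (SE) beside an edgeR log2 fold change, or a difference of them, is its size divided by the square root of the F statistic. It is an approximation that is unstable near 0. DESeq2 1.42.0 and limma 3.58.1 (voom) were alternatives, with other scalings, filters, cell sets and each library left out. The test was tried on simulated counts. The chi-square statistic per degree of freedom reached 5.67 for the PLX5622 pair and 8.94 for the control pair, so no pair agreed within sampling noise. Pairs from different diets gave 8.71 to 14.1. The lowest of these, PLX5622 library 1 against control library 1, lay below the control pair.

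The 10 genes and the lists were chosen with earlier results of these data known. All 10 genes are described. Of each other list its counts are given and its members past the threshold are named, up to 4 with the smallest p. Nearest genes below the threshold (Srebf1, Hacd3) were named after their values were seen. The intermediate cluster and the smooth muscle against arterial difference were also added after seeing the data.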

Additional observations from a re-analysis of the deposited data

How the results depend on the processing

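In endothelial-like cells 2 to 4 genes passed in the 16 alternatives, with 3 in the fit reported. Fasn and Fads1 passed in all of them, Scd1 in 14, and Acly also passed without the low-count filter (adjusted p = 0.0342) and with the replicate number as a block (0.0413). Acaca changed sign without control library 1 (0.11) and without PLX5622 library 1 (0.01), over a range of -0.32 to 0.11 on leaving out each library. Leaving out each library in turn gave 2 to 3 calls in endothelial-like, 0 to 2 in arterial-like, 0 to 4 in intermediate, 1 to 3 in capillary-like and 0 to 1 in venous-like cells. In arterial-like cells 0 genes passed on library totals, in DESeq2, at 5% mitochondrial UMIs and at 2000 UMIs per cell. DESeq2 left 1 call in the intermediate cluster and 0 in capillary-like and venous-like cells. The cause was not tested. No gene passed a zone by diet difference in any of 6 alternatives, and the Scd1 to Scd2 log2 ratio differed by -2.74 to -2.54 between diets in 3. Thinned to 2000 instead of 1000 UMIs, the PLX5622 minus control difference in the share of cells was 0.891 percentage points for Fasn, -0.372 for Acaca (0.0555 at 1000 UMIs), 1.15 for Acly, -0.259 for Scd1, 1.87 for Fads1, 0.076 for Fads2 and 0.561 for Acss2. At 1000 UMIs it was 1.37 for Acly and -0.366 for Scd1. Cells under 2000 UMIs also drop out there, so depth and cell set change together, and the cause was not tested. Over all genes, 97 were higher and 49 lower (66.4% higher), and 86 and 75 on library totals (53.4%). The pairing check, a correlation of 0.0666 between same-numbered libraries over 12749 genes, rests on 2 pairs and the samples share only a number. The replicate block gave 4 calls among the 10 genes and 253 over all genes, against 146. The planned pericyte-like test was not run, since 1 library held 12 cells. With 13 to 133 UMIs behind Scd1, Fads2 and Elovl6 per diet, depth limits these 3 genes.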
